A study of Mus musculus with 4 samples.

Results

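The genes described here are 52 mouse genes known to be imprinted, grouped into 20 chromosomal clusters or single loci. They were chosen by name and not by their values, although earlier results of these data were known when they were chosen. Of these, 50 had a row among the 18042 genes measured, while Snurf and Rian were not analysed here. RNA from the dentate gyrus of the hippocampus was sequenced at postnatal day 14 in 2 wild type (WT) and 2 Eed cKO libraries, the latter from mice with a conditional knockout of Eed. All of the mice were C57BL/6, and the design text calls the libraries of a group biological replicates. The labels give neither the driver of the deletion, nor the cells in which it acts, nor the sex and litter of the mice. The deposited table holds the mean of each group, from which the reads of each library were recovered. Within a group the libraries carry the letters A and B, since the recovered values do not show which numbered sample each one is.

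An imprinted gene is expressed mainly from the copy inherited from one parent. In most clusters the choice is set by DNA methylation laid down in the egg or sperm at an imprinting control region, which then acts on several neighbouring genes, often through a long non-coding RNA. Polycomb repressive complex PRC2, of which Eed is a core subunit, methylates histone H3 on lysine 27 and keeps developmental genes silent, and that mark also lies on the silent copy of some imprinted genes. Many imprinted genes act in growth of the fetus and placenta, and a number of them stay active in neurons. The sequencing counts reads from both parental copies together, so nothing below separates one copy from the other.

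The regions just upstream of 6 genes that rose are printed here because they come from 5 clusters with members that rose and include a promoter region shared by a pair of members. Each is the 250 bases before the RefSeq start nearest to the gene's annotated 5′ end, in GRCm38.p6, read 5′ to 3′ along the gene. For Ndn that start lies over 1000 bases inside the GENCODE interval of the gene, and those of Zdbf2 and Usp29 lie a few bases inside it. Capitals mark CG, the pair of bases at which DNA is methylated.
Dlk1 (chr12:109452573-109452822, plus strand): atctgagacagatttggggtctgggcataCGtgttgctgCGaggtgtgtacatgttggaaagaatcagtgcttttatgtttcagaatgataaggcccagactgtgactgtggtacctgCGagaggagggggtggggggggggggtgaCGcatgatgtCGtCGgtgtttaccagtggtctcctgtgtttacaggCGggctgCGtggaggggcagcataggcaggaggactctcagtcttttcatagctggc
Magel2 (chr7:62376729-62376978, plus strand): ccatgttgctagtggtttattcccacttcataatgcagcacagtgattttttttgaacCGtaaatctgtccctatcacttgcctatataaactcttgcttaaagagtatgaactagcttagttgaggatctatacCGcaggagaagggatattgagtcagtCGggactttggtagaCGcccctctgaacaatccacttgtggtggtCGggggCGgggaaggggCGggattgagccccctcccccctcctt
Ndn (chr7:62348027-62348276, plus strand): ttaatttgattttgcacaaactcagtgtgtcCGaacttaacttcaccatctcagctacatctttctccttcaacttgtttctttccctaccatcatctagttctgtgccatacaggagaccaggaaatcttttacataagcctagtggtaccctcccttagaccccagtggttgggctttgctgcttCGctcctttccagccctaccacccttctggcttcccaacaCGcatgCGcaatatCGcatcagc
Usp29 (chr7:6730333-6730582, plus strand): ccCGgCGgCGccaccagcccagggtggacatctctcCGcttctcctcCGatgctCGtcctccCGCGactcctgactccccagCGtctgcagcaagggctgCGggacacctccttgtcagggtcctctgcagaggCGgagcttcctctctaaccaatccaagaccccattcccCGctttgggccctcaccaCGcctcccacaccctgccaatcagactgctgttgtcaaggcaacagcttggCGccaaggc
Nap1l5 (chr6:58907127-58907376, minus strand): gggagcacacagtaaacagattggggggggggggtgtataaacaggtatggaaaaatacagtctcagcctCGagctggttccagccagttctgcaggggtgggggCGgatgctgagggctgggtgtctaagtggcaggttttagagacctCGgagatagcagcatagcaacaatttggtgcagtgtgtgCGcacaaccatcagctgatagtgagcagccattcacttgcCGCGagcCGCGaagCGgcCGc
Zdbf2 (chr1:63273019-63273268, plus strand): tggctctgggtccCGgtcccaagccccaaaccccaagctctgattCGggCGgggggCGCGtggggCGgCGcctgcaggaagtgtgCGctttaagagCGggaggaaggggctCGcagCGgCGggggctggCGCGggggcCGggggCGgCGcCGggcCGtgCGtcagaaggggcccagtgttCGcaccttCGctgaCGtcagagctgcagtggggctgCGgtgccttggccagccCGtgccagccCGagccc
These windows differed widely in CG. That of Zdbf2 held 26, Usp29 14, Nap1l5 10, Dlk1 8, Magel2 7 and Ndn 5. CG reads the same on both strands and cannot overlap itself. Of the 11665 tested genes with such a window, 17.1% held at least as many as Zdbf2 and 87.3% at least as many as Ndn. Windows were found for 42 of the 50 members. The median was 9 CG over the 12 windows of members that rose, 14 over the 28 windows of members that did not pass the test, and 15 over all tested genes with a window. A share of 50%, 64.3% and 71.2% of these windows, respectively, held at least 10 CG. The start used lies over 1000 bases inside the GENCODE interval for 8 members, among them Ndn, Mirg and Blcap of those that rose. Without these 8, the medians were 8 CG over 9 windows and 14 over 23. These figures describe letters in a window, and DNA methylation was not measured.

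A larger share of the imprinted genes than of all genes was higher in Eed cKO, and no member was lower past the threshold. The filter asked for 10 or more normalized counts in 2 or more libraries. Of the 48 members that met it, 14 were higher in Eed cKO at an adjusted p under 0.05 (limma), which is 29.2% of them. With no filter on low counts the number was 7, as Asb4, Mirg, Ndn, Peg3, Usp29, Blcap and Inpp5f then had adjusted p-values from 0.0524 for Ndn to 0.08 for Inpp5f. Over all 15020 genes tested, 6.44% passed, 3.54% higher and 2.9% lower. At an unadjusted p under 0.05, 27 members were higher and 3 lower, the latter being Herc3, Copg2 and Igf2r. The same limit gave 1857 higher and 1865 lower among the 15020 genes tested. The median log2 fold change was 0.32 over the 48 members and -0.0032 over all genes tested, and 40 members had a positive value, as did 49.5% of all genes. Both Eed cKO libraries lay above both WT libraries for 34 members and below for 3, against 27.8% and 29% of all genes tested. Calcr reached the filter only through its Eed cKO libraries and so had to differ. Without it, 13 of 47 members rose. In tissue RNA of this kind, fewer cells of a type and less RNA per cell cannot be told apart.

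The 14 genes that rose came from 9 of the 20 clusters. They were Peg10, Calcr and Asb4 on chromosome 6, Dlk1 and Mirg on chromosome 12, Magel2 and Ndn in the Prader-Willi/Angelman cluster, Peg3 and Usp29, Klf14, Blcap, Nap1l5, Zdbf2 and Inpp5f. By group means, 10 of them rose at least 1.5-fold and 7 at least 2-fold. The lower Eed cKO library exceeded the higher WT library by 1.24-fold to 11.1-fold. WT B was the lower WT library in 9 of the 14, and in 7354 of the 15020 genes tested. Over all 14, WT B stood at 61.5% to 121% of WT A.

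**Figure D1:**
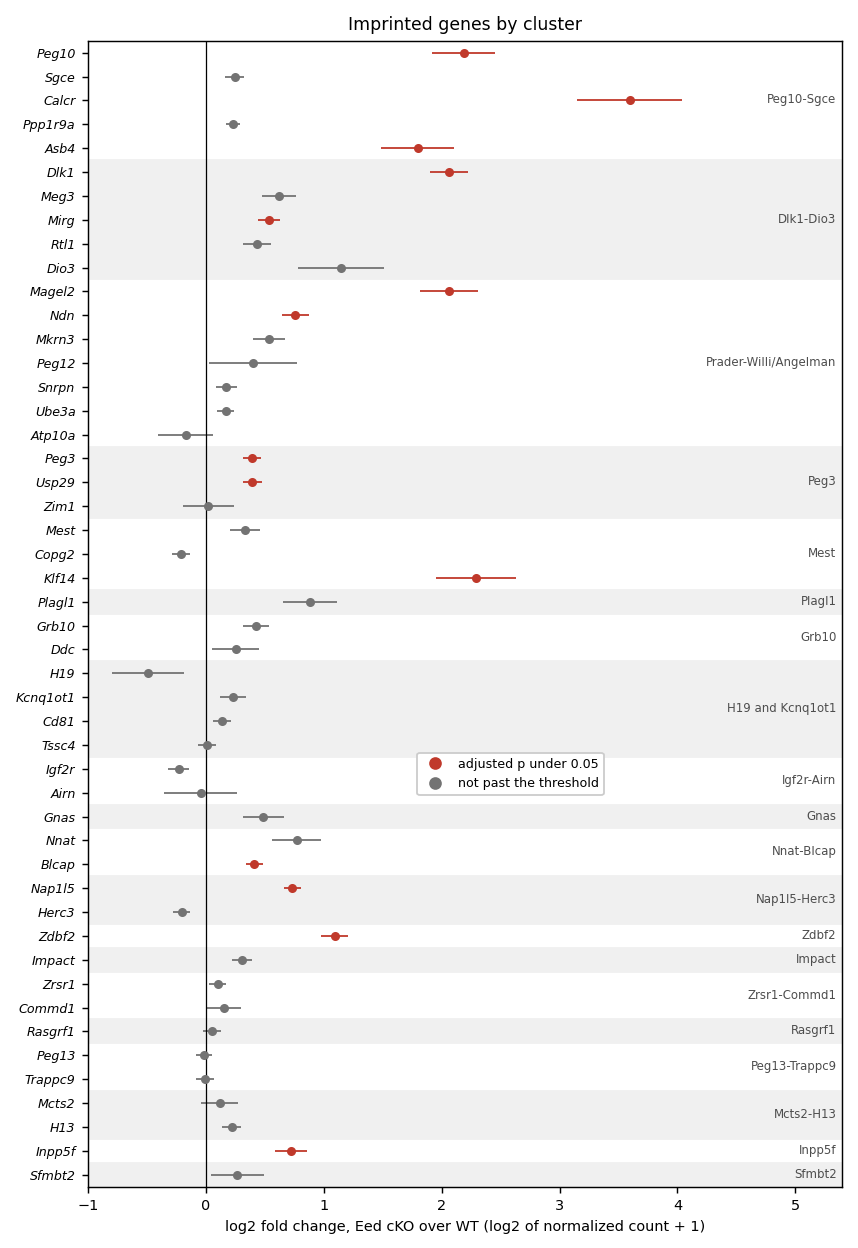
The log2 fold change of each of the 48 tested imprinted genes, Eed cKO over WT on the scale of log2(normalized count + 1), with bars of 1 standard error from limma, grouped by cluster. The 14 genes past an adjusted p of 0.05, in red, all lie to the right of 0, and Calcr at 3.60 lies farthest from it.

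Single libraries mattered for these calls. With either Eed cKO library left out, limma called no gene of the whole table, although 16 members had an unadjusted p under 0.05 without Eed cKO A, and 20 had one without Eed cKO B. edgeR, a test on the recovered reads that was added after the data were seen, then called 5 members in each case. Peg10, Dlk1, Magel2 and Zdbf2 were called both times, with Nap1l5 added without Eed cKO A and Calcr without Eed cKO B. Leaving out WT A gave 19 calls in limma and leaving out WT B gave 12.

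Libraries held 17263273 to 17789587 reads in genes, so depth was nearly even. Eed itself fell to 50.2% of WT, from 251 and 301 reads in WT to 133 and 142 in Eed cKO, with an adjusted p of 0.0189. Eed was the one of 12 tested PRC2 subunits that passed the test. WT B stood apart in choroid plexus genes. The normalized counts of 12 such markers summed to 2278 there and to 28342 to 43096 in the other 3 libraries. Slc4a5, one of those markers, was at 0 in WT B. Eed cKO A stood apart in Xist, the RNA of the inactive X chromosome, with 3809 reads against 8 to 11 elsewhere. The labels do not give the sex of the mice, and a difference in sex between the libraries was not tested.

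Markers of other cells moved with the groups. Of 8 dentate granule neuron markers, 4 fell and none rose, and their summed normalized counts went from 9734 and 13033 in WT to 6172 and 5474 in Eed cKO. None of these granule markers was at 0 in any library. Among 12 markers of GABAergic interneurons, 2 rose, Sst and Dlx2, and the sums were 20546 and 21243 in WT and 27230 and 26736 in Eed cKO. Of the markers of CA pyramidal neurons, 4 of 10 rose and 1 fell, while 1 of 8 thalamic markers rose. Gbx2, a thalamic marker under the filter, was at 0 in both WT libraries and had only 2 and 6 reads in Eed cKO. Meningeal and fibroblast markers fell in 8 of 12 cases and rose in 1, astrocyte markers fell in 4 of 8, immature neuron markers fell in 5 of 8, and 1 of 8 microglial markers rose. No choroid plexus, endothelial or oligodendrocyte marker passed in limma, of 12, 8 and 8. At an unadjusted p under 0.05 there were 0, 2 and 1 of these, and edgeR called 1 endothelial marker while DESeq2 called none. The part of these cell types in the changes of imprinted genes was not tested.

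**Figure D2:**
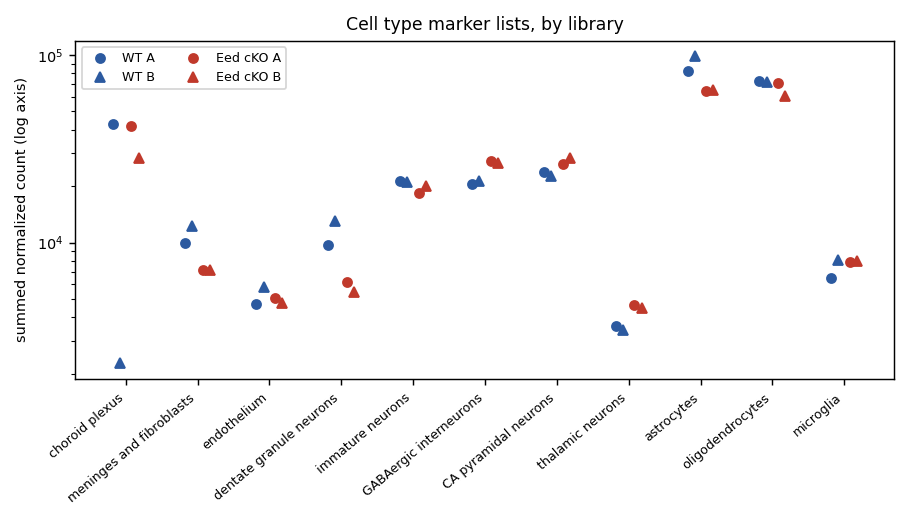
Summed normalized counts of each marker list in each of the 4 libraries, on a log axis. WT B lies far below the other libraries for choroid plexus markers, at 2278, and both Eed cKO libraries lie below both WT libraries for dentate granule neuron markers.

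The Peg10-Sgce cluster on chromosome 6 held the member with the largest fold change, Calcr. Peg10, a gene derived from a retrotransposon and needed for the placenta, had 527 and 332 reads in WT and 2348 and 1525 in Eed cKO. Every Eed cKO value was far above every WT value, while the libraries of each group also differed among themselves. The means were 426 ± 135 and 1936 ± 574 normalized counts (SD, n = 2), a 4.54-fold difference with a log2 fold change of 2.18 ± 0.27 (SE) and an adjusted p of 0.014. Calcr encodes the calcitonin receptor. It had 3 reads in each WT library against 67 and 33 in Eed cKO, so it was near the limit of detection in WT. The ratio of its summed reads, scaled for library size, was 16.8, with a 95% Clopper-Pearson interval of 7.45 to 46.8 that covers counting error only, and its adjusted p was 0.014. Asb4, a substrate adaptor of a ubiquitin ligase, had 20 and 23 reads in WT and 99 and 59 in Eed cKO, a log2 fold change of 1.80 ± 0.31 with an adjusted p of 0.0303.

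Sgce and Ppp1r9a, which lie between Calcr and Asb4 as Peg10 does, did not pass the test. Sgce encodes epsilon-sarcoglycan and starts 99 bases from Peg10 on the opposite strand, yet it had 564 and 581 reads in WT and 697 and 650 in Eed cKO, a log2 fold change of 0.24 ± 0.081 with an adjusted p of 0.139. Ppp1r9a, which encodes the actin-binding protein neurabin, was the most abundant of the cluster by reads, with 2146 and 2136 in WT and 2503 and 2475 in Eed cKO. Its libraries were close within each group and the groups did not overlap, but the adjusted p was 0.0928. Within 500 kb of these genes, 1 of 10 other tested genes passed, the fibroblast collagen Col1a2, which fell to 39.6% of WT.

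Dlk1-Dio3 on chromosome 12 carries protein-coding genes read from the paternal copy and long non-coding RNAs read from the maternal copy. Dlk1, a membrane protein related to Notch ligands, had 69 and 83 reads in WT and 343 and 293 in Eed cKO. All 4 values were close within their groups, and the means of 75.5 ± 10.1 and 318 ± 34.0 normalized counts (SD, n = 2) differed 4.21-fold. The log2 fold change was 2.06 ± 0.16 with an adjusted p of 0.00595, the lowest of all members. Rtl1, another retrotransposon-derived gene, had 187 and 179 reads in WT and 247 and 244 in Eed cKO, and its adjusted p was 0.088. Dio3 encodes the deiodinase that inactivates thyroid hormone. It had 106 and 56 reads in WT and 221 and 132 in Eed cKO, and with that spread its log2 fold change of 1.15 ± 0.37 had an adjusted p of 0.127. Dio3 passed in DESeq2, at 0.0323, and without WT A, at 0.0386.

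On the maternal side of that cluster, Mirg rose and Meg3 lay at the edge of the threshold. Mirg, a long non-coding RNA that hosts many microRNAs, had 609 and 636 reads in WT and 836 and 955 in Eed cKO, a 1.45-fold difference with an adjusted p of 0.032. Without WT A its adjusted p was 0.0508. Meg3, the long non-coding RNA at the head of the maternal transcripts, was the member with the most reads, 45454 and 47376 in WT and 68000 and 73688 in Eed cKO. The groups were well apart, with a log2 fold change of 0.62 ± 0.15, but the adjusted p was 0.0656 in limma, against 0.0323 in edgeR, 3.77e-09 in DESeq2, 0.0397 without WT A and 0.0349 without WT B. The fold of Meg3, 1.54, was near that of Mirg.

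The annotation places 14 microRNA hairpins with 26 mature forms inside Mirg, out of 58 hairpins between Dlk1 and Dio3. Of their 25 seeds, bases 2 to 8, one is shared by 2 mature forms. The following are shown because they have starts that differ by few bases within this tandem array, with the seed in capitals (RefSeq, GRCm38.p6).
mmu-miR-154-3p: aAUCAUACacgguugaccuauu
mmu-miR-369-3p: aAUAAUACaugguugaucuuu
mmu-miR-410-3p: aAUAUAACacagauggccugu
Mature microRNAs were not measured in these libraries. Within 500 kb of the cluster, 1 of 8 other tested genes passed. This was Mir1188, the row of a hairpin that lies inside the interval annotated to Rian, with 2 and 1 reads in WT and 13 and 12 in Eed cKO. It reached the filter only through its Eed cKO libraries and so had to differ. It is named after its values were seen, and reads of the hairpin and of a longer transcript across it cannot be told apart.

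In the Prader-Willi/Angelman cluster on chromosome 7, both MAGE family genes rose, and the other 5 tested members did not pass the test. Magel2, which acts with a ubiquitin ligase in protein recycling from endosomes, had 102 and 69 reads in WT and 415 and 296 in Eed cKO. WT B was the lowest and Eed cKO A the highest, and the groups did not come near each other. The means of 84.9 ± 22.8 and 356 ± 82.7 normalized counts (SD, n = 2) differed 4.19-fold, with a log2 fold change of 2.06 ± 0.24 and an adjusted p of 0.013. Ndn, which encodes necdin, a neuronal protein of differentiation and survival, had 6291 and 5020 reads in WT and 9589 and 9290 in Eed cKO. It differed 1.68-fold with an adjusted p of 0.0212.

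The other genes of that cluster spanned a wide range of levels. Mkrn3, a ubiquitin ligase linked to the timing of puberty, had 304 and 243 reads in WT and 380 and 402 in Eed cKO, with an adjusted p of 0.0766 in limma and 0.029 without WT A. Snrpn, which encodes the neuronal splicing protein SmN, had the most reads per length here, 3868 normalized counts per kb of exon in WT. Its reads were 8961 and 7853 in WT and 9303 and 9476 in Eed cKO, an increase of 0.17 ± 0.091 on the log2 scale with an adjusted p of 0.297. Ube3a, the ubiquitin ligase lost in Angelman syndrome and read from the maternal copy in neurons, had 1336 and 1332 reads in WT and 1437 and 1538 in Eed cKO, with an adjusted p of 0.215. Peg12 had only 11 to 18 reads in any library, and the log2 fold change of Atp10a, a phospholipid transporter, was -0.17 ± 0.23 with overlapping groups.

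Peg3 and Usp29 on chromosome 7 are read in opposite directions from starts 147 bases apart, and their windows of 250 bases share 163 bases, which are exact reverse complements. The sequence printed for Usp29 therefore also holds those 163 bases of the upstream window of Peg3. Peg3, a zinc finger protein abundant in brain, had 3213 and 2855 reads in WT and 3957 and 3927 in Eed cKO. Usp29, of the deubiquitinase family, had 537 and 553 in WT and 689 and 734 in Eed cKO. Their folds by group means were both 1.31, with log2 fold changes of 0.39 ± 0.078 and 0.39 ± 0.082 and adjusted p-values of 0.0443 and 0.0481. Both lost the call without WT B, at 0.0583 and 0.07. Usp29 also lost it without WT A, at 0.0781, and in DESeq2, at 0.114. Zim1, a zinc finger gene of the same cluster read from the maternal copy, had 104 and 77 reads in WT and 99 and 82 in Eed cKO, with a 95% interval of its log2 fold change of -0.51 to 0.55.

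Klf14 in the Mest cluster on chromosome 6 is a gene without introns that encodes a Krüppel-like transcription factor. It had 18 and 11 reads in WT and 86 and 61 in Eed cKO. Both WT libraries were close to the filter and both Eed cKO libraries several times above it, which gave a 5.11-fold difference, a log2 fold change of 2.29 ± 0.34 and an adjusted p of 0.019. Mest, a hydrolase of mesodermal tissues, had 462 and 365 reads in WT and 522 and 505 in Eed cKO, with an adjusted p of 0.181 and of 0.0444 without WT A. Copg2, a coat protein of Golgi vesicles, was the most abundant of the cluster, with 1044 and 1007 reads in WT and 912 and 848 in Eed cKO. Its adjusted p was 0.154. Mest and Copg2 overlap on opposite strands, and whether counting used strand is not given in the sources used here, so reads in the shared stretch cannot be assigned to either.

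**Figure D3:**
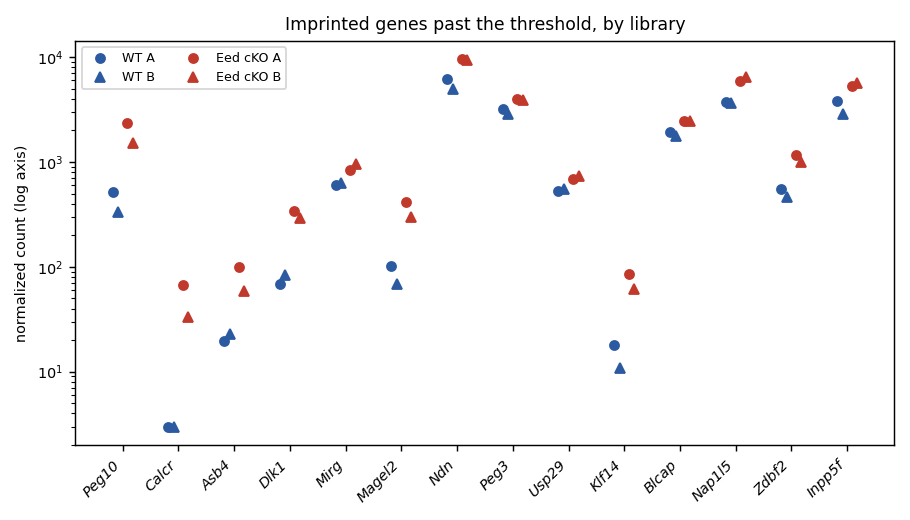
Normalized counts of the 14 imprinted genes that passed the test in each of the 4 libraries, on a log axis. For each gene both Eed cKO libraries lie above both WT libraries, and in WT the genes range from Calcr, with 3 reads in each library, to Ndn, with 6291 and 5020.

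Some members lie inside another member. Nap1l5, a nucleosome assembly protein homologue, lies inside Herc3 on the opposite strand. It had 3765 and 3660 reads in WT and 5887 and 6375 in Eed cKO, which are narrow spreads, and its 1.66-fold difference had an adjusted p of 0.00966. Herc3, a ubiquitin ligase, had 2757 and 2733 reads in WT and 2268 and 2455 in Eed cKO, a log2 fold change of -0.21 ± 0.071 with an adjusted p of 0.148. Nnat encodes neuronatin, a small membrane protein of the endoplasmic reticulum, and lies inside Blcap on the opposite strand. It had the highest level per length of all members in WT, 6796 normalized counts per kb of exon. Its reads were 15256 and 9778 in WT and 22158 and 19270 in Eed cKO, and with WT B so far below WT A the log2 fold change of 0.77 ± 0.21 had an adjusted p of 0.0928, or 0.00636 without WT A. Blcap, a small conserved membrane protein, had 1958 and 1757 reads in WT and 2451 and 2445 in Eed cKO. It rose 1.33-fold with an adjusted p of 0.035, and had 0.0501 without WT B. Reads of these pairs could be split between host and guest where they overlap.

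Zdbf2 and Inpp5f stand as single loci. Zdbf2, a zinc finger protein that in mice is linked to feeding and growth after birth, had 552 and 467 reads in WT and 1161 and 999 in Eed cKO. The means of 506 ± 57.6 and 1080 ± 110 normalized counts (SD, n = 2) differed 2.13-fold, with a log2 fold change of 1.09 ± 0.12 and an adjusted p of 0.0101. Inpp5f, an inositol phosphatase of endosomes, had 3852 and 2906 reads in WT and 5336 and 5622 in Eed cKO, a 1.63-fold difference with an adjusted p of 0.0359. Of the 12 other genes tested within 500 kb of Inpp5f, 2 rose, Tgfb1i1 by 1.62-fold and Rgs10 by 1.56-fold. Near Mcts2 and H13, neither of which passed, 4 of 20 did, among them Mylk2, which reached the filter only through its Eed cKO libraries. Over all genes tested, 3.54% rose.

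In the remaining 11 clusters, 19 members were tested and none passed in limma or edgeR. DESeq2 called Plagl1 and Gnas, and at an unadjusted p under 0.05, 5 of the 19 were higher and 1 lower. Plagl1, a zinc finger transcription factor of an imprinted growth network, had 881 and 538 reads in WT and 1390 and 1140 in Eed cKO. Its log2 fold change was 0.88 ± 0.23 with an adjusted p of 0.083 in limma, 0.000502 in DESeq2 and 0.00752 without WT A. Gnas, which encodes the stimulatory G protein alpha subunit and other products, had 2520 and 2004 reads in WT and 3690 and 2651 in Eed cKO, with an adjusted p of 0.162. Grb10, an adaptor that restrains insulin signalling, had 531 and 609 reads in WT and 811 and 705 in Eed cKO, with an adjusted p of 0.0851. Its neighbour Ddc, which makes dopamine and serotonin from their precursors, overlapped between groups. Impact, a regulator of translation in neurons, had 3270 and 2815 reads in WT and 3777 and 3672 in Eed cKO, with adjusted p-values of 0.103 and, without WT A, 0.0238.

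The H19 and Kcnq1ot1 domains on chromosome 7 were among these clusters. Cd81, a tetraspanin and the most abundant of them, had 6797 and 6825 reads in WT and 7773 and 7118 in Eed cKO, with an adjusted p of 0.329. Kcnq1ot1, the long non-coding RNA that silences its domain in cis, had 708 and 850 reads in WT and 862 and 945 in Eed cKO, with an adjusted p of 0.271. It lies inside Kcnq1 on the opposite strand. H19, a non-coding RNA best known from fetal tissue, had 110 and 184 reads in WT and 82 and 122 in Eed cKO, so its groups overlapped and the 95% interval of its log2 fold change ran from -1.25 to 0.26. The log2 fold change of Tssc4 was 0.01, with an interval of -0.18 to 0.20. Phlda2, with at most 1 read in a library, and Ascl2, with 4 to 9, were too low to test.

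Igf2r, the receptor that clears insulin-like growth factor 2, had 654 and 635 reads in WT and 579 and 513 in Eed cKO. Its adjusted p was 0.187 in limma. Airn, an RNA antisense to Igf2r, had 29 and 22 reads in WT and 28 and 21 in Eed cKO, which overlapped. Rasgrf1, an activator of Ras in neurons, had 7875 and 8295 reads in WT and 8098 and 8536 in Eed cKO, with an adjusted p of 0.732. Peg13, a brain non-coding RNA inside Trappc9, had 3697 and 3659 against 3516 and 3687, and the 95% interval of its log2 fold change was -0.18 to 0.14. H13, a signal peptide peptidase, had 1227 and 1355 reads in WT and 1516 and 1461 in Eed cKO with an adjusted p of 0.162, and the log2 fold change of its guest Mcts2 was 0.12 ± 0.16. Zrsr1, a splicing factor gene inside Commd1, had 891 and 875 reads in WT and 970 and 910 in Eed cKO with an adjusted p of 0.444, while Commd1 itself had a log2 fold change of 0.15 ± 0.15. Sfmbt2, a Polycomb-related gene imprinted in the placenta, had 152 and 121 reads in WT and 196 and 134 in Eed cKO with an adjusted p of 0.51. With the strand setting unknown, reads where Igf2r and Airn, Kcnq1ot1 and Kcnq1, or Zrsr1 and Commd1 overlap on opposite strands cannot be assigned to either. Peg13 in Trappc9 and Mcts2 in H13 lie on the same strand as their hosts, so their reads could be split under any strand setting.

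The members were sorted by the parental copy that is usually expressed, as known from other work. Of 26 tested members read from the paternal copy 9 rose, or 34.6%. Of 19 read from the maternal copy 5 did, or 26.3%. Over all 15020 genes tested, 3.54% rose. The 3 genes sorted here as tissue-dependent or transcript-dependent, Grb10, Ddc and Gnas, did not pass in limma or edgeR. They are not all of the members with such imprinting. Sfmbt2 and Ube3a, described above by placenta and neurons, were sorted by parental copy. Which copy of each gene is read in the dentate gyrus was not measured. At an unadjusted p under 0.05 in limma, 2 of Grb10, Ddc and Gnas were higher, against 1857 of the 15020 genes tested. DESeq2 called Gnas. The median log2 fold changes were 0.40, 0.15 and 0.42. This grouping was made after the values were seen and carries no test, and the difference between paternal and maternal genes was not tested.

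The genes near the members but not among them were tested in the same fit. They include genes reported as imprinted that are on the further list below. Of these, Kcnk9 rose, while Igf2 and Osbpl5 fell. The shares given here are therefore not those of genes free of imprinting. Of 179 other tested genes within 500 kb, 11 rose and 5 fell, so 8.94% passed, against 6.44% of all genes tested and 29.2% of the members. Of the 11, Mir1188, Mylk2 and Gata3 reached the filter only through their Eed cKO libraries and so had to differ. Without the 7 neighbours that were under the filter in both WT libraries, 8 of 172 rose and 5 fell, or 7.56%. The median log2 fold change over all 179 was 0.04. The 3 with the lowest p were Vstm2l, Col1a2 and Itih2. Vstm2l, a neuronal secreted protein within 500 kb of the Nnat-Blcap cluster, rose 2.06-fold. Col1a2 and Itih2 fell to 39.6% and 29.0% of WT. The difference between members and neighbours was not tested.

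**Figure D4:**
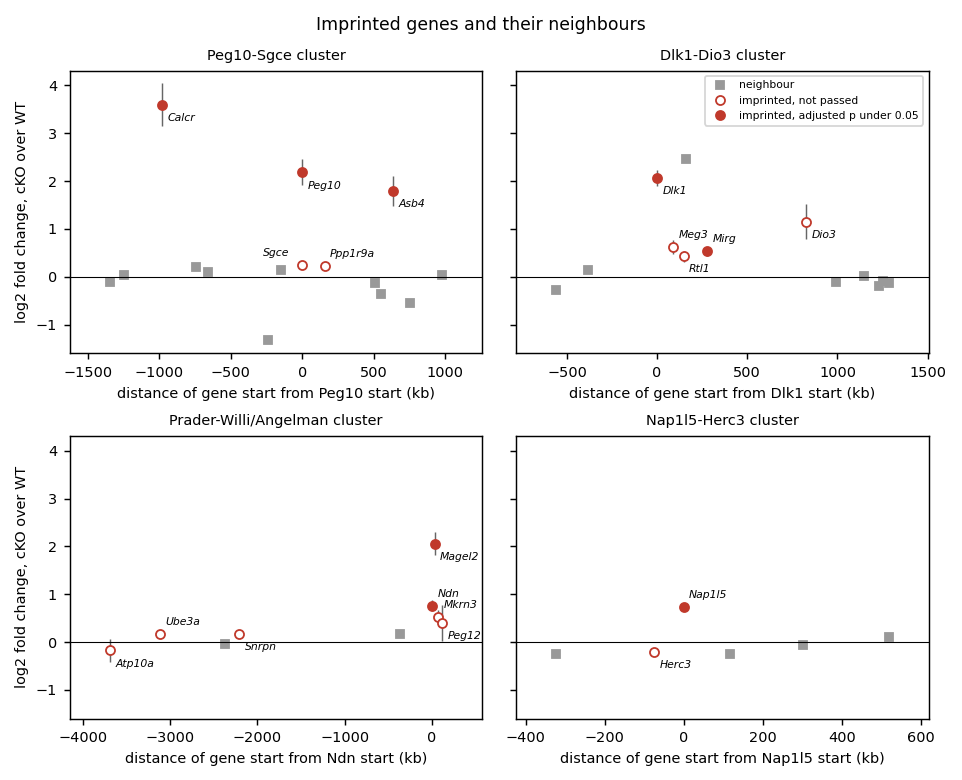
The log2 fold change of members and of the other tested genes within 500 kb, plotted by distance of their starts in kb for 4 clusters, with bars of 1 standard error for members. Calcr, Peg10 and Asb4 lie at 1.80 or above while the neighbours of that cluster lie near 0 or, for Col1a2, at -1.33, and the neighbour above Dlk1 is Mir1188, which reached the filter only through its Eed cKO libraries.

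A further list held 39 other genes reported as imprinted, of which 34 were tested. Dcn, a proteoglycan, rose 2.03-fold, the potassium channel Kcnk9 1.62-fold and the matrix protein Smoc1 1.57-fold. Igf2, the fetal growth factor beside H19, had 178 and 312 reads in WT and 85 and 57 in Eed cKO. It fell to 29.1% of WT with an adjusted p of 0.0349, and Osbpl5, a lipid transfer protein, fell to 76.3% with an adjusted p of 0.0462. The median log2 fold change of this list was 0.18. Dcn was also the 1 marker of meninges and fibroblasts that rose, while 8 others of that list fell. Of 15 tested genes that set or keep imprints, 1 passed, or 6.67%, near the 6.44% of all genes tested. This was the DNA methyltransferase Dnmt3a. It had 3057 and 2896 reads in WT and 3900 and 3687 in Eed cKO, with an adjusted p of 0.039 in limma.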

How the data were processed

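The submitters' processing notes name HISAT2 2.1.0, which is an aligner, DESeq2 1.2.0 and the genome build GRCm38. RNA came from flash-frozen tissue by Trizol, per the labels' protocols. Which read counter, strand setting and annotation were used is not given in the sources used here. The authors deposited 1 table with the mean normalized signal of each group and of all libraries, a log2 fold change with its standard error, the test statistic (a score), and p-values with adjusted p-values. Each group mean is a sum of whole reads in 2 steps, 1 for each library, so the reads of both libraries were recovered for 100% of genes (18042, tolerance 1e-08). Counts per library are therefore derived from the deposited means. The size factors were 1.01 and 1.00 in WT and 1.00 and 0.996 in Eed cKO.

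Normalized counts were tested with limma 3.58.1 (trend) on log2(count + 1) over genes that reached 10 normalized counts in 2 or more libraries, with Benjamini-Hochberg adjustment over all 15020 genes tested and a threshold of 0.05. Fold changes on that scale understate changes of low genes. There were 2 residual degrees of freedom, to which limma added 4 prior degrees of freedom taken from all genes tested. edgeR 4.0.16 on the recovered reads called 999 genes and DESeq2 1.42.0 called 1067, against 967 in limma. The table has no mark of batch. The p-values rest on the spread between these libraries, and limma draws that of each gene toward the trend over all genes. The fit was also run on simulated data in which every gene had the same spread beyond counting error. Changes were placed there only in genes with larger mean counts than Calcr or Klf14. That run does not bear on such low members, or on a library that stands apart as WT B did. Coordinates are GRCm38 (GENCODE vM21), matched by gene ID for 18030 genes. Promoter and microRNA sequences are RefSeq, GRCm38.p6. Every member is accounted for. Values in each library are given for each member past the threshold, the most abundant member of each cluster and, where none passed, the one with the lowest p. Other members were added for their roles. Members, lists and alternatives were chosen with earlier results of these data known.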

Additional observations from a re-analysis of the deposited data

How the results depend on the processing

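With other settings the count of imprinted genes that rose was 15 in edgeR, 17 in DESeq2 and by the authors' deposited table, 14 with pseudocounts of 0.5 and 5, 13 with a filter of 50 and 15 with scaling by library totals. Without a filter on low counts it was 7, and the whole table gave 473 in place of 967. There Asb4, Mirg, Ndn, Peg3, Usp29, Blcap and Inpp5f lost the call, and the cause was not tested. With 1 library left out, limma gave 0 to 19 members and 0 to 1386 genes, and edgeR, added after seeing the data, gave 5 to 20 members and 64 to 1669 genes. Leaving out a library leaves its group with 1 sample, which is assumed to vary like the other group. Both counts of 0 came without an Eed cKO library, with 2165 and 1989 genes at an unadjusted p under 0.05. Library totals moved the log2 fold change of Trappc9 to 5.5e-05. With 1 library left out, small log2 fold changes changed sign, and ranged from -0.45 to 0.10 for Atp10a, -0.19 to 0.23 for Zim1, -0.016 to 0.52 for Ddc, -0.0067 to 0.029 for Tssc4, -0.24 to 0.15 for Airn, -0.059 to 0.018 for Peg13, -0.086 to 0.071 for Trappc9, -0.018 to 0.25 for Mcts2 and -0.0028 to 0.53 for Sfmbt2. No paired analysis was possible because the recovered libraries carry no replicate number.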
